A study of Mus musculus with 62 samples.

Results

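RNA-seq of whole hippocampus was examined in 7 female Ts65Dn;Brwd1+/- mice against 8 female Ts65Dn mice, 15 of the 47 adult hippocampal libraries and of the 62 libraries in the series. All were 6 weeks old, on a mixed DBA/2J x B6EiC3Sn/J background, with 1 library per animal and no pooling of animals. Ts65Dn mice carry a small extra chromosome made of a segment of mouse chromosome 16 joined to the centromeric end of chromosome 17, so that every gene on it, Brwd1 included, is present in an additional copy. That segmental trisomy is shared by both groups. Ts65Dn;Brwd1+/- mice were offspring of Ts65Dn females and heterozygous Brwd1 mutant males, and carry the mutation on 1 of their Brwd1 copies, while Ts65Dn mice have all copies intact. Gene counts do not separate the mutant transcript from the intact one. The mutation is germline, so every cell of the animal carries it. The 8 labelled Ts65Dn;Brwd1+/- females were reduced to 7 because the triplicated genes of the library labelled B136 were at the euploid level, so the members were selected on a measured value, and the levels of the triplicated genes in these 7 libraries are given below as a description with no test.

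BRWD1 carries bromodomains, which bind acetylated histones, and WD40 repeats, and the question behind the comparison is what returning only this gene towards its normal copy number does to the trisomic hippocampal transcriptome. Neuronal chromatin remodelling by the BAF (SWI/SNF) complex, with which BRWD1 associates, is part of that question. The gene groups that the comparison turned on are of another kind. Immediate early genes are transcribed within minutes of neuronal firing through factors such as CREB and SRF that are already bound at their promoters, and in the hippocampus they mark recently active neurons. Circadian clock genes form a feedback loop in which CLOCK and BMAL1 (encoded by Arntl) drive E-box-containing genes, among them the Per, Cry, Nr1d and Dbp genes, whose products in turn repress the loop or carry its output.

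Of 16775 genes tested, 1 differed between Ts65Dn;Brwd1+/- and Ts65Dn females at an adjusted p under 0.1 (0.00596% of the genes tested), and 756 had an unadjusted p under 0.05, of which 377 were higher (2.25%) and 379 lower (2.26%) in Ts65Dn;Brwd1+/-. The gene that passed was Ciart, which encodes a repressor of CLOCK and BMAL1 and was raised 1.91-fold. Behind it by unadjusted p came Dbp, a clock output factor, Coq10b, a coenzyme Q-binding protein of mitochondria, and Fos, the immediate early gene most widely used as an activity marker. Then followed Egr1, Arl4d, Sox2, which was lower, Junb and Egr4. None of these passed the adjusted threshold. Immediate early genes had an unadjusted p under 0.05 and a higher level in Ts65Dn;Brwd1+/- in 15 of 23 cases and clock genes in 7 of 18. The ribosomal, respiratory, synaptic receptor and BAF subunit genes did so in 4 of 82, 0 of 79, 0 of 10 and 0 of 30 cases.

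The promoters of a clock gene that passed, of a gene that belongs to both lists and of a pair of immediate early genes are shown because they carry the letters by which each group is classically recognised, although none of these libraries measured binding. Each is 300 bases on its own strand from 250 bases before the annotated start of transcription, read from RefSeq on GRCm38.p6, with the E-box CACGTG and the cyclic AMP response element half-site TGACG (or CGTCA on the other strand) in capitals. Ciart lies at chr3:95882179-95882478 on the minus strand, Per1 at chr11:69098699-69098998 on the plus strand, Fos at chr12:85473640-85473939 on the plus strand and Dusp1 at chr17:26508423-26508722 on the minus strand. A single annotated start per gene is shown. Those of Ciart and Per1 lie inside their annotated genes, which begin at chr3:95882257 and chr11:69095108. The sequence before the outer Per1 start is not shown.
Ciart: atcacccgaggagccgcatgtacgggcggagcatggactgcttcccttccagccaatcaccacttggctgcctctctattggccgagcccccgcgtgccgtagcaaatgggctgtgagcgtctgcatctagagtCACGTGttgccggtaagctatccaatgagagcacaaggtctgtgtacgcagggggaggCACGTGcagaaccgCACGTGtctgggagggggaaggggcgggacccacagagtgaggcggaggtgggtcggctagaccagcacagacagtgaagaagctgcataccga
Per1: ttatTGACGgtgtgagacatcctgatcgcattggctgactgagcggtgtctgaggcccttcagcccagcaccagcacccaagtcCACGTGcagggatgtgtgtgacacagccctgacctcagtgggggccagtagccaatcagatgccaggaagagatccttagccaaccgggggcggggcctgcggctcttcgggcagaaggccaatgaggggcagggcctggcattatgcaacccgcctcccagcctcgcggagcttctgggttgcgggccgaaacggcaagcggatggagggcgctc
Fos: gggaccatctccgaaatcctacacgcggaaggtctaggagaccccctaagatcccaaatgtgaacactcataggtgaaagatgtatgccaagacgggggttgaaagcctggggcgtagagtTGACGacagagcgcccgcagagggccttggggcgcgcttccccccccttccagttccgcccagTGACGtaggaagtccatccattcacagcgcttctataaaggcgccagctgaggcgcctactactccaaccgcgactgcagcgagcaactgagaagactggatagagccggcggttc
Dusp1: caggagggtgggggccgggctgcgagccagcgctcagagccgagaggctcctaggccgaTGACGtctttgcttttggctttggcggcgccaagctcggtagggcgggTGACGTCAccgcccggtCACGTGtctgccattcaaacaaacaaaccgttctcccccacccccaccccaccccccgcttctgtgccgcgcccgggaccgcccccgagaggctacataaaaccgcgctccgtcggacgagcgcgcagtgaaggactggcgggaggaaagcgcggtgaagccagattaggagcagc

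In these windows, Ciart held 3 E-boxes, which begin 116, 58 and 44 bases before the start shown, and no half-site. The Per1 window, at a start inside the gene, held 1 E-box and, farther upstream at 246 bases, 1 half-site. Fos held 2 half-sites, at 129 and 66 bases, and no E-box, while Dusp1 had both motifs, an E-box at 126 bases and 3 half-sites at 191, 143 and 140, of which the last 2 lie on opposite strands and overlap. Of the 18 clock genes, 16 had a promoter in the RefSeq table, and an E-box was found for 5 of them (31.2%) against 8.09% of the 27025 genes in the table. Of the 23 immediate early genes, 17 had one, and a half-site was found for 14 (82.4%) against 23% of all genes in the table. A gene with several annotated starts counted once if any of its windows held the motif. Counted by window, an E-box was found in 27.3% of 22 clock gene windows against 7.15% of all 32851 windows. A half-site was found in 58.6% of 29 immediate early gene windows against 20.8% of all windows. The list members were all genes tested here, whereas the 27025 genes of the table include genes that were not tested, so the sets are unlike. A share over the tested genes alone was not computed. These shares describe letters in windows of equal length and say nothing of whether a factor was bound.

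The triplicated genes placed the 7 members with the trisomic animals. Over the tested genes of the 2 segments (92 on chromosome 16 and 41 on chromosome 17), the median log2 ratio to the female euploid mean was 0.542 to 0.594 in the 7 Ts65Dn;Brwd1+/- libraries (median 0.57) and 0.534 to 0.624 in the 8 Ts65Dn libraries. The library nearest the border on the inside, B113, was at 0.542, and the library left outside, B136, was at -0.015, within the range of -0.04 to 0.061 of the 8 labelled euploid females. In the comparison of the groups, the triplicated genes of chromosome 16 had a median log2 fold change of -0.011 and those of chromosome 17 of -0.032.

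Brwd1 itself (chr16:95992089-96082703, GRCm38) was at 110.9, 147.2 and 155.6 CPM (lowest, median and highest library) in Ts65Dn;Brwd1+/- females and at 143.6, 163.3 and 187.8 CPM in Ts65Dn females. CPM are counts brought to a common total per library, scaled by TMM over the 47 adult libraries, and depend on gene length, so they are compared here between libraries and not between genes. All 7 members were below the Ts65Dn median, but only B176 was below the lowest Ts65Dn library. In the 7 euploid females, Brwd1 was at 76.41, 118.6 and 138.9 CPM, lower than in the members other than B176. The log2 fold change of Ts65Dn;Brwd1+/- against Ts65Dn was -0.19 (SE 0.071, n = 7 and 8). Because Brwd1 lies in the segment that chose the libraries, its difference was tested only over all 8 labelled Ts65Dn;Brwd1+/- libraries and after subtracting, within each library, the median over the rest of the triplicated genes. That relative level was -0.276 ± 0.151 (SD, n = 8) on the log2 scale in Ts65Dn;Brwd1+/- and -0.084 ± 0.123 (SD, n = 8) in Ts65Dn, a difference of -0.192 (exact permutation test over 12870 arrangements, 2-sided p = 0.005905), with 8 of 8 Ts65Dn;Brwd1+/- libraries below the Ts65Dn median. Without B176 the difference was -0.141 (exact permutation p = 0.01274). B136 had a relative level of -0.274, close to the Ts65Dn;Brwd1+/- mean.

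**Figure D1:**
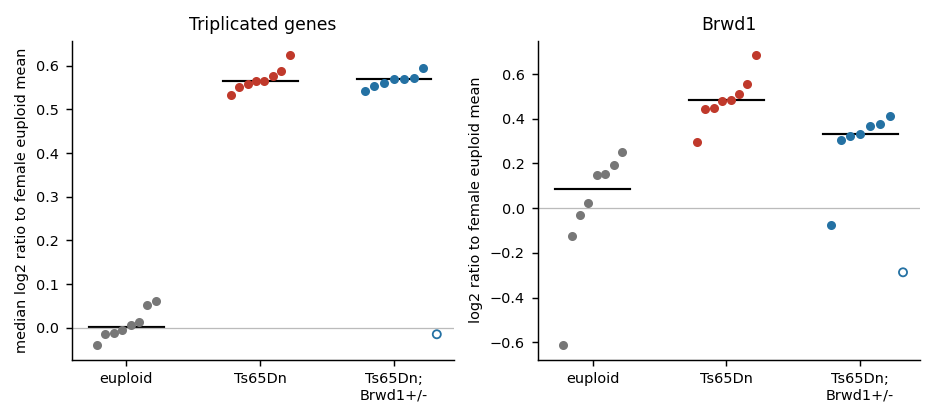
Left, median log2 ratio of the tested triplicated genes to the mean of the female euploid libraries, one point per library. Right, the same ratio for Brwd1 alone. Grey points are the 8 labelled euploid females, red points Ts65Dn, blue points Ts65Dn;Brwd1+/- and the open circle B136, which was left out; black lines are medians without B136. Triplicated genes overlap between the 2 trisomic groups (0.542 to 0.594 and 0.534 to 0.624), while Brwd1 has a median of 0.332 in Ts65Dn;Brwd1+/- and 0.482 in Ts65Dn.

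The genes on either side of Brwd1 did not follow it. Erg, Ets2 and Psmg1 on one side had log2 fold changes of 0.01, 0.07 and -0.02, and Hmgn1, Get1 and Lca5l on the other of 0.03, -0.00 and -0.05, with SEs of 0.044 to 0.16. Ets2, for example, was at 115.4, 122.3 and 132.2 CPM in Ts65Dn;Brwd1+/- and at 110.4, 114.7 and 127.1 CPM in Ts65Dn, with euploid libraries between 79.12 and 93.86. Of the other members of the BRWD family, Phip, on chromosome 9, was at a log2 fold change of -0.04 (SE 0.12, adjusted p = 0.99) and Brwd3, on the X chromosome, at -0.17 (SE 0.23, adjusted p = 0.985). B176 was the lowest of the 7 in each gene. Without B176, Phip had 0.060 and Brwd3 -0.018, and without both B176 and the Ts65Dn library T142, Brwd3 had 0.018. None of the 30 BAF and PBAF subunit genes had an unadjusted p under 0.05 in either direction, and their median was -0.001. Smarca4, the ATPase of the complex, was at 192.3, 211.3 and 237.1 CPM against 207, 220.6 and 238.1 CPM (log2 fold change -0.06, SE 0.051).

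Library B176 stood apart from the other 6 members, as did B125 among the euploid females. Over the 2330 tested genes that span more than 100 kb, the median deviation from the mean of the 15 libraries was -0.34 on the log2 scale in B176 and between -0.08 and 0.07 in the other 14. Its Brwd1, Phip, Brwd3, Grin2b, Grin2a and Xist levels were the lowest of its group, and its ribosomal protein mean was the highest. Depth was 58.7 M counted reads, within the range of 33.6 to 124.3 M over the 15 libraries, and all 15 had Xist between 200.6 and 662 CPM with Ddx3y at or below 0.178 CPM, as their female label states. All identifiers of the 7 members start with B, as do 5 of the 8 Ts65Dn identifiers, the other 3 (T139, T141 and T142) starting with T. By number, the identifiers ran from B113 to B181 in the members and from B53 to T142 in Ts65Dn. What the letters and numbers stand for was not given in the sources used here, nor was the date or time of day of dissection.

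Ciart (chr3:95878500-95882257, GRCm38) was at 8.609, 11.99 and 13.56 CPM in Ts65Dn;Brwd1+/- and at 3.808, 5.601 and 8.314 CPM in Ts65Dn, with no overlap between the groups. Its log2 fold change was 0.93 (SE 0.14, adjusted p = 0.0701), above the Ts65Dn median in 7 of 7 libraries. Non-overlapping groups were found for 9 genes with the higher level in Ts65Dn;Brwd1+/- (0.0537% of the genes tested) and for 1 with the lower (0.00596%), and the 9 held a second clock gene. Dbp, a PAR bZIP factor and a direct E-box target, was at 73.31, 81.16 and 97.04 CPM against 26.58, 52.02 and 61.33 CPM (log2 fold change 0.77, SE 0.13, adjusted p = 0.138). The lowest Ts65Dn library was T142 for both genes. Leaving out 1 library at a time, the log2 fold change of Ciart was 0.86 to 1.005. It passed in the fits without B167, T142, B135 or B103, and in each of the other 11 its adjusted p was above 0.1. Using only libraries whose identifiers start with B, its log2 fold change was 0.77 with an adjusted p of 0.302, and that of Dbp was 0.64 with an adjusted p of 0.105.

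Of the clock genes that encode repressors of the loop, Per1, Per2, Nr1d2, Bhlhe41 and Cry2 were also higher at unadjusted p under 0.05, while Per3, Cry1, Nr1d1 and Bhlhe40 were not under that threshold. Per1 was at 128.6, 166.5 and 231.7 CPM in Ts65Dn;Brwd1+/- against 103.4, 120.9 and 155.3 CPM in Ts65Dn (log2 fold change 0.43, SE 0.12, adjusted p = 0.662), and Per2 was at 34.01, 44.4 and 63.93 CPM against 27.4, 35.49 and 40.18 CPM (0.47, SE 0.13, adjusted p = 0.716). In both genes the groups overlapped, with 7 of 7 and 5 of 7 members above the Ts65Dn median. Nr1d2, which encodes the repressor REV-ERB beta, had a log2 fold change of 0.27 (SE 0.090, adjusted p = 0.96), and Bhlhe41 and Cry2 had 0.21 and 0.10. Arntl, the positive factor, was the single clock gene with a lower level at unadjusted p under 0.05, at 24.19, 29.04 and 31.72 CPM against 27.29, 32.92 and 47.97 CPM (log2 fold change -0.26, SE 0.10, adjusted p = 0.985). Its partner Clock had a log2 fold change of -0.10 (SE 0.14). Hence 7 of 18 clock genes were higher and 1 lower at unadjusted p under 0.05, beside 2.25% and 2.26% of all genes, and the median log2 fold change of the list was 0.202 against -0.002 over all genes tested. The remaining members, Per3, Cry1, Npas2, Nr1d1, Tef, Hlf, Rora, Rorb and Bhlhe40, ranged from -0.00 to 0.29.

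**Figure D2:**
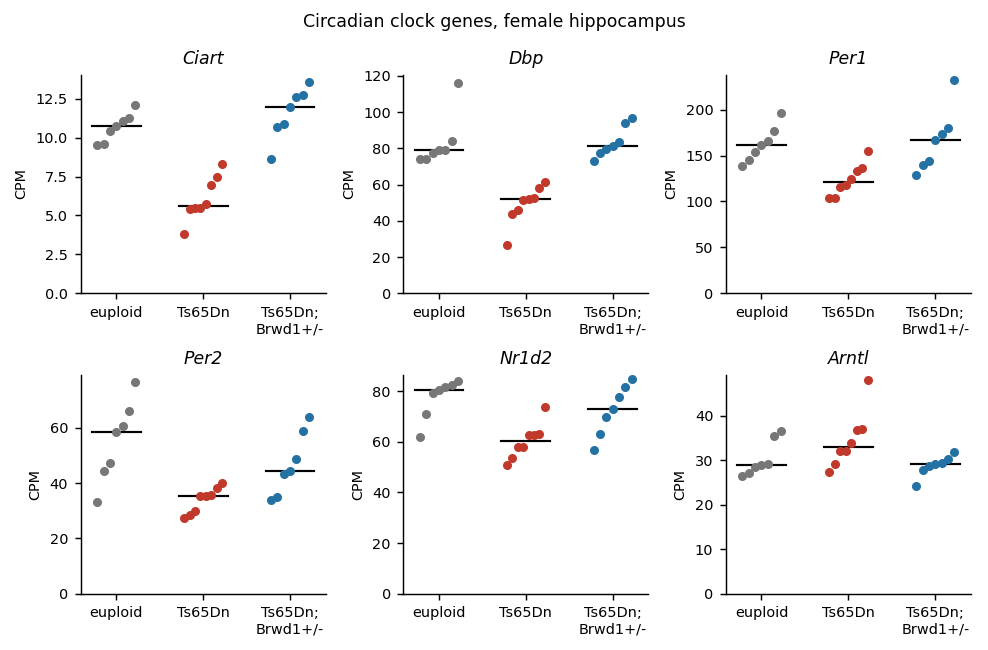
CPM of 6 clock genes in female hippocampus, 1 point per library, with black lines at the group medians; vertical axes start at 0. Grey is euploid (n = 7), red Ts65Dn (n = 8) and blue Ts65Dn;Brwd1+/- (n = 7). The Ts65Dn and Ts65Dn;Brwd1+/- points do not overlap for Ciart and Dbp, overlap for Per1, Per2 and Nr1d2, and lie in the opposite order for Arntl (medians 32.92 and 29.04 CPM).

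Fos was at 11.73, 23.88 and 31.45 CPM in Ts65Dn;Brwd1+/- and at 9.73, 12.95 and 13.82 CPM in Ts65Dn, a log2 fold change of 0.88 (SE 0.16, adjusted p = 0.156). In 6 of 7 members it was above the highest Ts65Dn library, and the exception was B181. Without B181 it was the only gene to pass the adjusted threshold. Of the other AP-1 and EGR transcription factors in the list, 5 were higher at unadjusted p under 0.05, and Fosl2 (log2 fold change -0.02) and Egr3 (0.04) were not. Junb was at 83.69, 106.4 and 134.4 CPM against 51.41, 76.24 and 91.93 CPM (0.52, SE 0.11, adjusted p = 0.355), and Egr1 was at 197.1, 269.2 and 339.5 CPM against 163.1, 183.8 and 222.7 CPM (0.52, SE 0.10, adjusted p = 0.346). Egr4 had a log2 fold change of 0.46 (SE 0.098), Fosb of 0.44 (SE 0.11) and Egr2 of 1.003 (SE 0.26), the last at 1.236 to 8.719 CPM over the 15 libraries. None of them passed the adjusted threshold, and in each the members were above the Ts65Dn median in 7 of 7 libraries.

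Arc, whose product removes AMPA receptors from synapses, was at 166.4 to 369.8 CPM in Ts65Dn;Brwd1+/- and at 104.3 to 172.8 CPM in Ts65Dn, with 6 of 7 members above the highest Ts65Dn library (log2 fold change 0.69, SE 0.15, adjusted p = 0.355). Npas4, a neuron-specific factor induced by calcium influx, had the largest log2 fold change of the list, 1.06, with a large error (SE 0.32, adjusted p = 0.815): it was at 9.302, 23.81 and 33.29 CPM against 5.464, 8.737 and 17.91 CPM. Of the orphan nuclear receptors, Nr4a1 had 0.55 (SE 0.12), Nr4a2 0.46 (SE 0.19) and Nr4a3 -0.08 (SE 0.16). Dusp1, a phosphatase that switches off MAP kinases, was at 13.84, 21.91 and 32.64 CPM against 9.75, 14.33 and 18.4 CPM (0.69, SE 0.16, adjusted p = 0.484), while Dusp6 had 0.11 (SE 0.099). Ier2, Btg2, Gadd45b and Per1, which is counted in both lists, complete the 15 that were higher at unadjusted p under 0.05.

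The 8 immediate early genes that missed even the unadjusted threshold were Sik1, Dusp6, Egr3, Nptx2, Fosl2, Bdnf, Nr4a3 and Homer1, with log2 fold changes of 0.24 down to -0.09. Bdnf, a neurotrophin, was at 39.32, 42.93 and 52.03 CPM against 41.55, 48.1 and 52.29 CPM, and Homer1, a postsynaptic scaffold gene, at 62.77, 91.76 and 99.55 CPM against 87.75, 96.2 and 102.9 CPM. These ranges overlapped. The median log2 fold change of all 23 genes was 0.443, 19 were above 0, and no member passed the adjusted threshold with edgeR, whereas 9 did with DESeq2 on the same libraries. With 1, 2 and 3 factors of unwanted variation (RUVr, a step of the study's method), 0, 3 and 11 members passed with edgeR and 10, 13 and 14 with DESeq2. The calls over all 16775 genes were 1 with edgeR and 32 with DESeq2. With the same factors these totals rose as well, to 4, 68 and 338 with edgeR and to 70, 624 and 948 with DESeq2. Summed over the list, the libraries held 1414 to 2049 CPM in Ts65Dn;Brwd1+/- and 1117 to 1313 CPM in Ts65Dn. B136, which took no part in the comparison, was at 41.03 CPM for Fos and at 1884 CPM for the sum, above every Ts65Dn library. In bulk tissue, a higher level in each active cell and a larger number of active cells cannot be told apart.

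**Figure D3:**
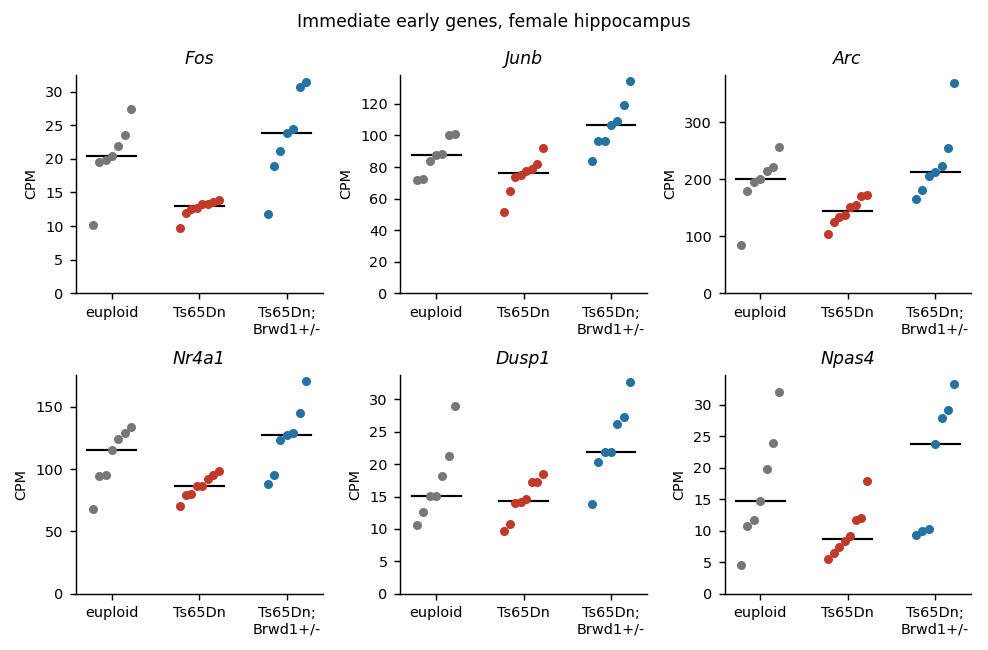
CPM of 6 immediate early genes in female hippocampus, 1 point per library, with black lines at the group medians; vertical axes start at 0. Grey is euploid (n = 7), red Ts65Dn (n = 8) and blue Ts65Dn;Brwd1+/- (n = 7). Fos medians are 12.95 CPM in Ts65Dn and 23.88 CPM in Ts65Dn;Brwd1+/-, and in each of the 6 genes some Ts65Dn;Brwd1+/- points overlap the Ts65Dn range.

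Among genes lower in Ts65Dn;Brwd1+/-, those with the smallest p were Sox2, 4930412C18Rik, Lman2l, Lpcat3, Ush1g, Gpr179, Gdf11 and Adamts18, with adjusted p from 0.355 to 0.558. Sox2, a transcription factor of neural stem cells and astrocytes, was at 37.74, 40.76 and 47.89 CPM against 44.91, 53.27 and 59.03 CPM (log2 fold change -0.31, SE 0.064), below the lowest Ts65Dn library in 5 of 7 members. Sox9, which is expressed in the same cells, was at 37.83, 43.35 and 50.46 CPM against 47.24, 52.94 and 65.65 CPM (-0.31, SE 0.082, adjusted p = 0.655). Of 12 astrocyte markers, Sox9 was the only member with an unadjusted p under 0.05. Lpcat3, a lysophospholipid acyltransferase, was at 19.99, 22.09 and 23.6 CPM against 23.25, 25.52 and 27.92 CPM (-0.22, SE 0.052). The others except Lman2l and Gdf11 were low throughout: 4930412C18Rik, Ush1g, Gpr179 and Adamts18 lay between 0.332 and 3.52 CPM in the 15 libraries. Pcdhga4, a clustered protocadherin, was the single gene whose members all lay below Ts65Dn, at 7.791 to 12.91 CPM against 13.05 to 18.17 CPM.

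Ribosomal and respiratory genes had small positive medians that rested on B176. Of 82 tested cytosolic ribosomal protein genes, 76 had a log2 fold change above 0, with a median of 0.123, but 4 were higher and 1 lower at unadjusted p under 0.05. Without B176, 57 of 82 were above 0 and the median was 0.027. The 79 nuclear subunits of oxidative phosphorylation had a median of 0.107 with all libraries and 0.007 without B176, and the 77 mitochondrial ribosomal proteins had 0.075 and 0. Rps7 was at 69.56, 77.92 and 110.2 CPM against 63.42, 68.15 and 81.86 CPM (0.25, SE 0.082, adjusted p = 0.942), and Rps15a at 56.42, 60.6 and 85.39 CPM against 72.91, 76.94 and 87.57 CPM (-0.24, SE 0.085). Ribosomal protein genes share sequence with many processed pseudogenes, so single values are uncertain. Of 57 translation factor genes, 3 were higher and 0 lower at unadjusted p under 0.05, beside 2.25% and 2.26% of all genes, and without B176 none was either.

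Synaptic gene lists were close to the background. None of 10 AMPA and NMDA receptor subunits, 12 GABA-A receptor subunits or 16 interneuron markers had an unadjusted p under 0.05. Grin2b, an NMDA receptor subunit, was at 5.686, 80.93 and 102.5 CPM against 34.09, 108.7 and 132.1 CPM (-0.47, SE 0.42), and B176 was the library at 5.686. Interferon-stimulated genes, several of which respond to interferon receptors encoded in the triplicated segment, had 0 of 20 higher and 2 lower at unadjusted p under 0.05, beside 2.25% and 2.26% of all genes. These were Oas1a and Mx2, both under 2 CPM in all 15 libraries. Mx2 itself lies in the triplicated segment of chromosome 16, whose levels were used to choose the libraries. Heat shock genes, MHC class II genes, microglial markers and myelin genes had no member under that threshold.

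The libraries were checked for the regions and cell types a hippocampal dissection can hold. Hippocampal markers were present in all 15 libraries. Mpped1 (CA1) was at 243.9, 286.1 and 329.4 CPM in Ts65Dn;Brwd1+/- and 227.1, 248.5 and 343.2 CPM in Ts65Dn, Rgs14 (CA2) at 110.6, 139.1 and 173.6 CPM against 124.9, 133.7 and 176.5 CPM, and C1ql2 (dentate granule cells) at 48.12, 70.03 and 93.54 CPM against 74.35, 109.6 and 138.3 CPM. Of 16 such markers, C1ql2 was the only member with an unadjusted p under 0.05 (log2 fold change -0.51, SE 0.16, adjusted p = 0.815). Eomes, a marker of intermediate progenitors, was low and variable, at 0.459 to 0.895 CPM against 0.302 to 3.45 CPM (log2 fold change -1.12, SE 0.47). Cldn5, a tight junction gene of brain endothelium, was at 22.51, 29.05 and 35.71 CPM against 26.16, 43.16 and 57.37 CPM (-0.51, SE 0.14, adjusted p = 0.724), and with Pdgfrb and Kdr it made 3 of 13 endothelial and mural markers lower at unadjusted p under 0.05, beside 2.26% of all genes. Of 10 genes of oligodendrocyte precursors, among them Olig1 and Olig2 of the triplicated segment, 9 had a log2 fold change below 0 (median -0.131) and Gpr17 was lower at unadjusted p under 0.05 (38.79, 43.41 and 60.65 CPM against 47.03, 57.11 and 65.8 CPM). Without B176, 3 of the 10 were lower at that threshold and none was above 0, beside 412 and 8428 of the 16846 genes tested in that fit. With B176, 8282 of the 16775 genes tested were above 0. Olig1 and Olig2 are among the genes whose levels were used to choose the libraries. In bulk tissue, fewer cells of a type and less RNA per cell cannot be told apart.

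Choroid plexus varied more between libraries than between groups. The sum of 20 choroid plexus markers was 267.1 to 7960 CPM in Ts65Dn;Brwd1+/- and 187.4 to 9016 CPM in Ts65Dn, 0 of 20 markers had an unadjusted p under 0.05, and the defining marker Ttr was at 30.23 CPM or more in each member and 13.61 CPM or more in each Ts65Dn library. With a choroid plexus covariate in the fit, Ciart was again the only gene to pass (adjusted p = 0.0732). Thalamus markers summed to 94.43 to 124.3 CPM in the members and 88.69 to 305.7 CPM in Ts65Dn, where T142 was highest, followed by T139. Tcf7l2 was the 1 of 6 thalamus markers lower at unadjusted p under 0.05 (4.595, 4.857 and 6.559 CPM against 4.151, 6.621 and 36.72 CPM). Without T139 and T142, Ciart and Dbp passed the adjusted threshold (log2 fold changes 0.82 and 0.65). In that fit 14 immediate early and 7 clock genes were higher at unadjusted p under 0.05, beside 320 of 16779 genes tested. Of the 9 striatum markers, 1, Gpr6, was higher at unadjusted p under 0.05, beside 2.25% of all genes (log2 fold change 0.63, SE 0.29, adjusted p = 0.985). Its medians were low, at 1.377 CPM against 0.81 CPM. Without B176, 0 of the 9 were higher and 1 was lower at that threshold, beside 346 and 412 of 16846 genes tested. Of the 7 cortex, 7 ependymal, 7 meningeal and 3 blood markers tested with B176, none had an unadjusted p under 0.05.

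**Figure D4:**
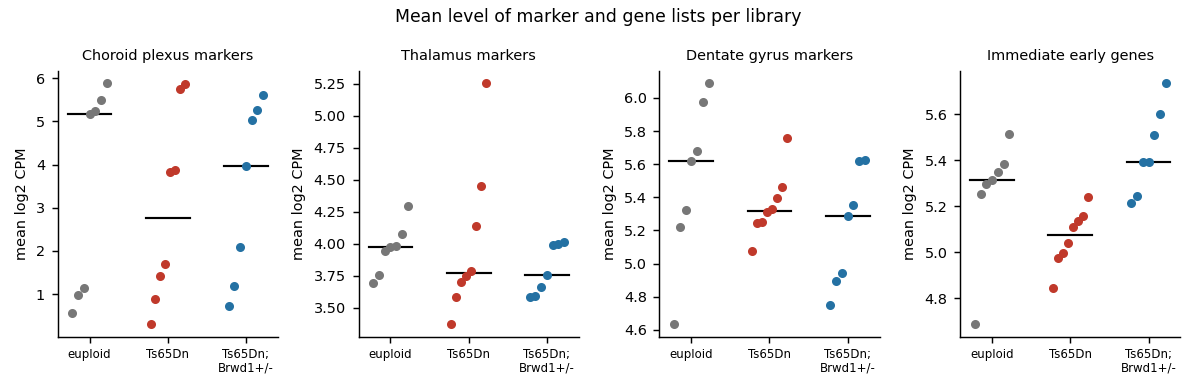
Mean log2 CPM of 4 gene lists per library in female hippocampus, with black lines at the group medians; the vertical axes do not start at 0. Grey is euploid (n = 7), red Ts65Dn (n = 8) and blue Ts65Dn;Brwd1+/- (n = 7). Choroid plexus markers spread over similar ranges in all groups, the highest thalamus value is T142 in Ts65Dn (5.257), and the immediate early gene means are 5.214 to 5.738 in Ts65Dn;Brwd1+/- and 4.844 to 5.239 in Ts65Dn.

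Against the 7 euploid females, Ts65Dn females were lower in the same lists. That comparison shares all 8 Ts65Dn libraries with the one above, so that a low value in those libraries enters both, and its values are only set side by side here. The euploid library B85 was left out of it because it held Y-linked transcripts. Ciart was at 9.508, 10.73 and 12.12 CPM in euploid females and had a log2 fold change of -0.81 (SE 0.13, adjusted p = 0.00364) in Ts65Dn against euploid. Dbp had -0.76 (adjusted p = 0.0137), Per2 -0.71 (adjusted p = 0.0336), Fos -0.70 (adjusted p = 0.0413) and Per1 -0.40 (adjusted p = 0.064). In the order of medians, Ciart was lowest in Ts65Dn, with euploid and Ts65Dn;Brwd1+/- libraries overlapping (9.508 to 12.12 and 8.609 to 13.56 CPM). Fos followed the same order, at 10.21, 20.49 and 27.47 CPM in euploid females, and its ranges overlapped between all 3 groups. At unadjusted p under 0.05, 8 of 18 clock genes and 10 of 23 immediate early genes were lower in Ts65Dn than in euploid females, beside 5.83% of all genes, and 0 and 1 were higher, beside 6.44%. Of these, 6 clock genes and 2 immediate early genes passed the adjusted threshold. Without the euploid library B125, the lowest of its group for the immediate early gene mean, these became 7 and 10. Over all genes, the calls in both directions were 215 of 16893 with B125 and 1269 of 16958 without it. Of the 8 lower genes with the smallest p above, Adamts18, Lpcat3 and Gdf11 passed the adjusted threshold in Ts65Dn against euploid. Their log2 fold changes were 0.75 (adjusted p = 0.0546), 0.24 (adjusted p = 0.0297) and 0.43 (adjusted p = 0.068). Sox2 (0.04, adjusted p = 0.899), 4930412C18Rik (0.18, adjusted p = 0.814), Lman2l, Ush1g and Gpr179 did not pass.

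In male mice of the same 2 genotypes, the medians of the lists were -0.097 (immediate early genes) and -0.032 (clock genes), and with all labelled male libraries they turned to 0.081 and 0.01. The male groups held 6 Ts65Dn;Brwd1+/- libraries, with a median triplicated-gene ratio to male euploid mice of 0.513 to 0.611, and 5 Ts65Dn libraries, at 0.524 to 0.58. Left out were 3 libraries at the euploid level (T35, B138 and B145, at 0.018 to 0.037) and B88, which had Xist at 477.4 CPM. In males, Ciart was at 5.559, 7.124 and 11.91 CPM in Ts65Dn;Brwd1+/- and at 5.332, 6.737 and 13.37 CPM in Ts65Dn (log2 fold change -0.03, SE 0.27), and Fos at 6.117, 18.8 and 23.89 CPM against 8.092, 16.68 and 34.03 CPM (-0.08, SE 0.41). Both ranges overlapped almost fully. None of 23 immediate early genes was higher and 1, Egr3, was lower at unadjusted p under 0.05, beside 4.5% and 5.5% of all genes, and of 18 clock genes none was either. No gene passed the adjusted threshold in males with edgeR, where 1638 of 16383 had an unadjusted p under 0.05.

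The difference between the sexes was tested as an interaction. For Ciart the female log2 fold change exceeded the male one by 0.96 (SE 0.29, adjusted p = 0.542), for Dbp by 0.78 (SE 0.24, adjusted p = 0.542), for Egr1 by 0.82 (SE 0.24, adjusted p = 0.542) and for Fos by 0.96 (SE 0.40, adjusted p = 0.711). At unadjusted p under 0.05, 13 of 23 immediate early genes and 5 of 18 clock genes had the higher fold change in females, beside 2.72% of all genes, and none the lower. No gene passed the adjusted threshold with edgeR, the smallest adjusted p being 0.221 (Rasl11b), while 1100 of 17176 had an unadjusted p under 0.05 and 11 passed with DESeq2, none of them in either list. With all labelled libraries of both sexes, the count for immediate early genes was 3 of 23 and for clock genes 5 of 18. In that fit, 743 of 17183 genes had an unadjusted p under 0.05 in either direction. At that threshold, neither list had a member with the lower fold change in females. The difference between the sexes is therefore not shown for any single gene of these lists.

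**Figure D5:**
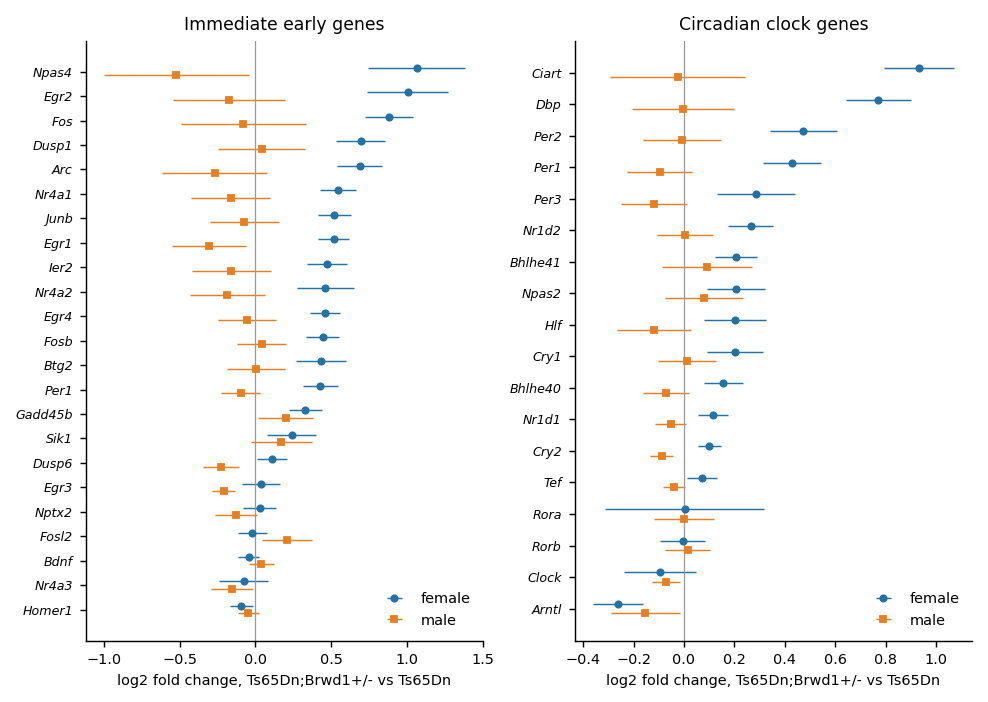
Log2 fold change of Ts65Dn;Brwd1+/- against Ts65Dn for 23 immediate early genes (left) and 18 clock genes (right), ordered by the female value. Blue circles are females (7 against 8 libraries), orange squares males (6 against 5), and bars are ± 1 SE. The female median is 0.443 for immediate early genes and 0.202 for clock genes, and the male medians are -0.097 and -0.032.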

How the data were processed

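Poly(A) RNA of whole hippocampus was sequenced from libraries made with a kit that does not mark strand, so that reads of a gene and of an overlapping antisense gene cannot be told apart. Raw counts per gene were deposited by the authors, who had aligned the reads with HISAT2 (mm10) and counted them with featureCounts (versions 2.1.0 and 2.0.1 in the submitters' processing notes, which also list DESeq2 2.11.40.6), with the reads of 2 flow cells joined per animal. Of 27179 genes in the table, 25275 were matched to RefSeq positions.

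The members and gene lists were chosen with earlier results of these data known. From the counts, genes were kept by filterByExpr (minimum count 10), scaled by TMM and tested with the quasi-likelihood test of edgeR 4.0.16 (R 4.3.3, limma 3.58.1) with Benjamini-Hochberg adjustment over all genes and a threshold of 0.1, on 7 against 8 libraries. An unadjusted p under 0.05 from the same fit was used only to count members of lists. The SE of an edgeR log2 fold change was derived from its test, as the absolute log2 fold change divided by the square root of the F statistic. Log2 CPM used a prior count of 0.5. The comparison with euploid females, the male comparison and the interaction used the same edgeR test on the libraries named with them, and DESeq2 is named where it was used. Exact permutation tests of libraries were used only for the relative level of Brwd1. The script was tested on simulated data. Groups came from the sample titles, no 2 libraries of a group held identical counts, and depth was 33.6 to 124.3 M counted reads.

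Named genes were Brwd1, Phip and Brwd3, the 8 genes with the smallest p in each direction, the 3 tested neighbours of Brwd1 on each side and up to 4 members of each list; further members of the immediate early and clock lists, Per1 and Dusp1 among the promoters shown, and Pcdhga4 were named after their values were seen. Alternatives were DESeq2 1.42.0, upper-quartile scaling, no filter, all labelled libraries, all 3 female genotypes in 1 fit, 1 to 3 RUVr factors (unwanted variation estimated from residuals, a step of the study's own method, whose number of factors was not given in the sources used here), a choroid plexus covariate, libraries with B identifiers only, a threshold of 0.05 and leaving out each library. Those without T139 and T142, without B176 and T142, and the counts over the 2 lists were added after the data were seen. Embryonic libraries were not analysed here.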

Additional observations from a re-analysis of the deposited data

Results flagged for a closer look

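Among 54 checks for a library far from the others of its group (gap to the nearest library over the range of the group, Dixon's 95% limit), 5 were met, and chance alone meets about 1 in 20. In Ts65Dn;Brwd1+/- females, B176 was low for all 3 BRWD family genes: Brwd1 at 6.79 log2 CPM with the next library at 7.17, Phip at 4.97 with the next at 5.65, and Brwd3 at 1.6 with the next at 2.99. Genes that span more than 100 kb were low in the same library (median deviation -0.34 on the log2 scale), and the part of this in the 3 values was not tested. In Ts65Dn females, T142 was low for Dbp, at 4.73 log2 CPM with the next library at 5.45, and B56 was low for Fos, at 3.28 log2 CPM with the next at 3.57. Leaving out T142 with B176 gave Dbp a log2 fold change of 0.64 (edgeR adjusted p = 0.00882), so that its difference did not rest on T142.

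The library labelled Ts65Dn;Brwd1+/- B136, which was left out because its triplicated genes were at the euploid level, had a mean of 5.708 log2 CPM over the 23 immediate early genes, above the range of 4.844 to 5.239 in Ts65Dn females. It is 1 library with no replicate check.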

How the results depend on the processing

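No paired analysis was possible because the animals of the 2 groups carry different identifiers and the labels name no pairing. The count of genes at an adjusted p under 0.1 between Ts65Dn;Brwd1+/- and Ts65Dn females was 1 with edgeR and depended on the method. It was 32 with DESeq2 (22 higher and 10 lower), 4, 68 and 338 with 1, 2 and 3 RUVr factors in edgeR, and 70, 624 and 948 with the same factors in DESeq2. It was 0 with all 8 labelled libraries, with 3 genotypes in 1 fit, with B identifiers only and at a threshold of 0.05, and 2 (Ciart and Dbp) without T139 and T142 or without B176 and T142. Leaving out 1 library gave 0 to 2: 2 without T142 or B135, 1 without B167, B103 or B181 (Fos in the last), and 0 without any of the other 10. The count at an unadjusted p under 0.05, 756, became 1148, 2108 and 2476 with 1 to 3 RUVr factors in edgeR and 1294, 2265 and 2606 in DESeq2, and 558 (without B103) to 913 (without B167) when 1 library was left out. The interaction with sex gave 0 genes with edgeR and 11 with DESeq2. The cause of these differences was not tested.

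The numbers of immediate early genes (13 to 15) and clock genes (6 to 9) that were higher at an unadjusted p under 0.05 moved little when 1 library was left out. Over the other settings they were 14 to 15 and 5 to 10, with 5 clock genes under B identifiers only and 10 with 2 RUVr factors in DESeq2 or 3 in either tool. Signs turned for Phip (-0.093 to 0.060 when 1 library was left out, the highest without B176, and 0.048 without B176 and T142), for Brwd3 (0.018 without B176 and T142) and, in males with all labelled libraries, for Ciart (0.12) and Fos (0.48), as did the male medians of both lists. In at least 1 setting they also turned for Erg, Psmg1, Hmgn1, Get1, Lca5l, Grin2a, Rgs14, Ttr, Fosl2, Egr3, Nr4a3, Nptx2, Clock, Rora and Rorb, each with an unadjusted p above 0.05 and a log2 fold change between -0.22 and 0.39. Depth limits most the genes of about 1 CPM, such as Eomes and Ush1g.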
